A study of Homo sapiens with 8 samples.

Results

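The genes described here are those of the deposited count table whose symbols name a numbered collagen chain (COL), laminin chain (LAMA, LAMB or LAMC) or integrin subunit (ITGA or ITGB), with the leukocyte subunit gene ITGB2 left out. They were chosen by a rule on symbols that was set with earlier results of these data known. They number 74 of the 39533 rows. The 44 collagen and 12 laminin genes are called matrix genes below. The 11 integrin alpha and 7 integrin beta genes are called receptor genes. RNA was sequenced from HCT116 cells, a human colorectal cancer line, recovered from a model in which tumour cells shed into the blood return to a tumour. Self-seeded tumour cells (TSC) gave 3 libraries, circulating tumour cells (CTC) 2 and primary tumour cells (PC) 3. Blood was the source of CTC and the primary tumour that of TSC and PC. All groups are the same line, with no agent or allele named that would part them. The series title speaks of liver cancer although the line is colorectal, and no host species is given in the sources used here. The labels do not tell whether the libraries of a group came from separate animals or cultures, so each p-value measures a spread between libraries that may be technical.

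Collagens and laminins are secreted trimers. Laminins and collagen IV build the basement membrane under an epithelium, while collagens I, III and V form the fibres of the stroma. Integrins are membrane receptors made of an alpha and a beta subunit that hold cells to this matrix, and in skin the pair of ITGA6 and ITGB4 joins COL17A1 in the hemidesmosome, the junction that ties the cell to laminin. In the gut, laminins and their integrin receptors line the base of the epithelium.

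The total count was 4578869, 14717833 and 11268959 in TSC replicates 1 to 3, 957607 and 10524069 in CTC replicates 1 and 2, and 11648950, 10864761 and 19264595 in PC replicates 1 to 3. Levels are given as CPM, counts scaled to 1 common library total, and 3 counts, the limit that a count of 0 allows, stood for 2.99 CPM in CTC replicate 1 against 0.156 to 0.668 CPM elsewhere (counting error only). The 6 epithelial markers were detected in all groups, with sums of 7975 to 9240 CPM in TSC, 5146 and 7618 CPM in CTC and 5948 to 8000 CPM in PC. The sum of 11 leukocyte markers was 26.9 to 52.2 CPM in TSC, 379 and 119.6 CPM in CTC, and 14.3 to 23.8 CPM in PC, with CD3E at 0 in every library. CD68 alone made up most of the TSC and PC sums. It was at 26.5, 49.2 and 21.3 CPM in TSC, 19.9 and 14.2 CPM in CTC, and 10.8, 15.3 and 20.7 CPM in PC, so it did not rise in CTC. Of 6 red cell markers, 5 were detected, with sums of 195 and 252 CPM in CTC and at most 1.59 CPM in the TSC and PC libraries.

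Promoter windows, 250 bases before to 50 bases after a gene's start in RefSeq (GRCh38.p14), were found for 54 of the 74 members, with 72 windows in all. The windows shown are those of 4 called members and of a neighbouring collagen IV gene pair whose windows overlap. Capitals mark GGGCGG (the GC box), TGANTCA (the AP-1 motif) or TATAAA (the TATA box) on either strand, and adjoining hits can overlap.
COL6A2: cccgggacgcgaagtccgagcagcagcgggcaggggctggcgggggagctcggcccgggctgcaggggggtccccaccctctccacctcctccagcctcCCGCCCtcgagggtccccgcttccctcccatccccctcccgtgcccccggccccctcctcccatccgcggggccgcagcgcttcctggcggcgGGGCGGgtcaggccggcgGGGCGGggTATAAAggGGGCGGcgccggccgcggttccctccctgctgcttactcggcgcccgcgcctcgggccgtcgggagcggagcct
LAMB1: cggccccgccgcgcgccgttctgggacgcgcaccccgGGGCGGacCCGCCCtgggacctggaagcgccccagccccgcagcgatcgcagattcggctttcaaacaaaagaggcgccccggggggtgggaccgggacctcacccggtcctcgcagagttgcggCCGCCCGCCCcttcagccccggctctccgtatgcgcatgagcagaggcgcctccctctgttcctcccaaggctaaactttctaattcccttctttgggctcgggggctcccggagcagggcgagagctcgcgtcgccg
COL17A1: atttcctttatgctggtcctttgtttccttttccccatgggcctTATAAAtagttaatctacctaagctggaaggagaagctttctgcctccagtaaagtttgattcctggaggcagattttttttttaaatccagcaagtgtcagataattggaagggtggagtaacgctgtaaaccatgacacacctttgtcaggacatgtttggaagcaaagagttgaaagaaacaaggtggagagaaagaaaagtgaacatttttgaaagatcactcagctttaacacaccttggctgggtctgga
COL4A5: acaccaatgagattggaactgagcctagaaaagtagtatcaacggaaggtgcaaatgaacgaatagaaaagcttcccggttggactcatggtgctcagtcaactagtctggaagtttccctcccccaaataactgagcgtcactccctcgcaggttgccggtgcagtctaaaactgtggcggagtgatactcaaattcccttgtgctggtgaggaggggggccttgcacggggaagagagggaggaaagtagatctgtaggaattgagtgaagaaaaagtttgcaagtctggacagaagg
COL4A3: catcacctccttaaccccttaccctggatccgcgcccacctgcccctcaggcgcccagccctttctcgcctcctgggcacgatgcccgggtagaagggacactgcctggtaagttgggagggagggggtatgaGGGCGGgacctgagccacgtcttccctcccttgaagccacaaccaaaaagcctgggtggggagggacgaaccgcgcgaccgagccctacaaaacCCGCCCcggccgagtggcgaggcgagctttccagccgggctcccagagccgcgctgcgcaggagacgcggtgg
COL4A4: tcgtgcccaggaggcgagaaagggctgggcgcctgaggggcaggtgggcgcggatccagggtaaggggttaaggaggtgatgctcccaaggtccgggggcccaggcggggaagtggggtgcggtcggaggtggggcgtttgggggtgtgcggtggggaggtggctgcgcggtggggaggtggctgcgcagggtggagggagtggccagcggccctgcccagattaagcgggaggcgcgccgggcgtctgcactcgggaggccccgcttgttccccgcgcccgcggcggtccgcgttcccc
COL6A2 is at chr21:46097862-46098161 (plus strand), LAMB1 at chr7:108003112-108003411 (minus), COL17A1 at chr10:104085831-104086130 (minus), COL4A5 at chrX:108439588-108439887 (plus), COL4A3 at chr2:227164374-227164673 (plus) and COL4A4 at chr2:227164156-227164455 (minus). The COL6A2 window held 4 GC boxes and 1 TATA box and was 79.3% G and C, while the COL17A1 window held 0 GC boxes and 1 TATA box and was 40.7% G and C. LAMB1 had 4 GC boxes, 2 of them overlapping, COL4A3 had 2, and neither COL4A4 nor COL4A5 had a hit. COL4A3 and COL4A4 run head to head and their windows share 82 bases, COL4A5 and COL4A6 share 121 and COL4A1 and COL4A2 share 226. Over the members' windows, 58.3% held a GC box, 5.56% an AP-1 motif and 13.9% a TATA box, against 45.0%, 7.71% and 11.5% of all 35116 windows. A hit is a match of letters and was not tested as a binding site.

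Levels per length show which of these genes had the most RNA in the libraries. CPM per kilobase of the longest annotated transcript was highest for integrins: averaged over the 8 libraries it was 86.8 for ITGB1, the common beta subunit, 71.7 for ITGB4 and 67.1 for ITGA3, which pairs with ITGB1 to bind laminin. ITGA6 was at 34.6. The order differed by group: ITGB1 averaged 85.4, ITGA3 68.2 and ITGB4 54.9 in TSC, ITGB1 86.2, ITGA3 47.5 and ITGB4 40.4 in CTC, and ITGB4 109.3, ITGB1 88.6 and ITGA3 79.1 in PC. Together with ITGA6 these genes held 81.0% to 86.8% of the receptor sum in each library. Of the matrix genes, COL6A2 (37.3) had the highest mean over all libraries, followed by LAMB3, a laminin beta chain gene, COL6A1 (27.2), COL18A1 (20.4), LAMB2 (19.8) and LAMC1 (18.9). By group COL6A2 averaged 33.4 in TSC, 17.6 in CTC and 54.3 in PC, and LAMB3 30.9 in TSC, 25.1 in CTC and 45.6 in PC, so LAMB3 was the higher of the pair in CTC. COL6A1 and COL6A2 encode chains of the microfibrillar collagen VI and COL18A1 a basement membrane collagen whose end fragment is endostatin. These 3 genes held 60.6% to 80.2% of the collagen sum.

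**Figure D1:**
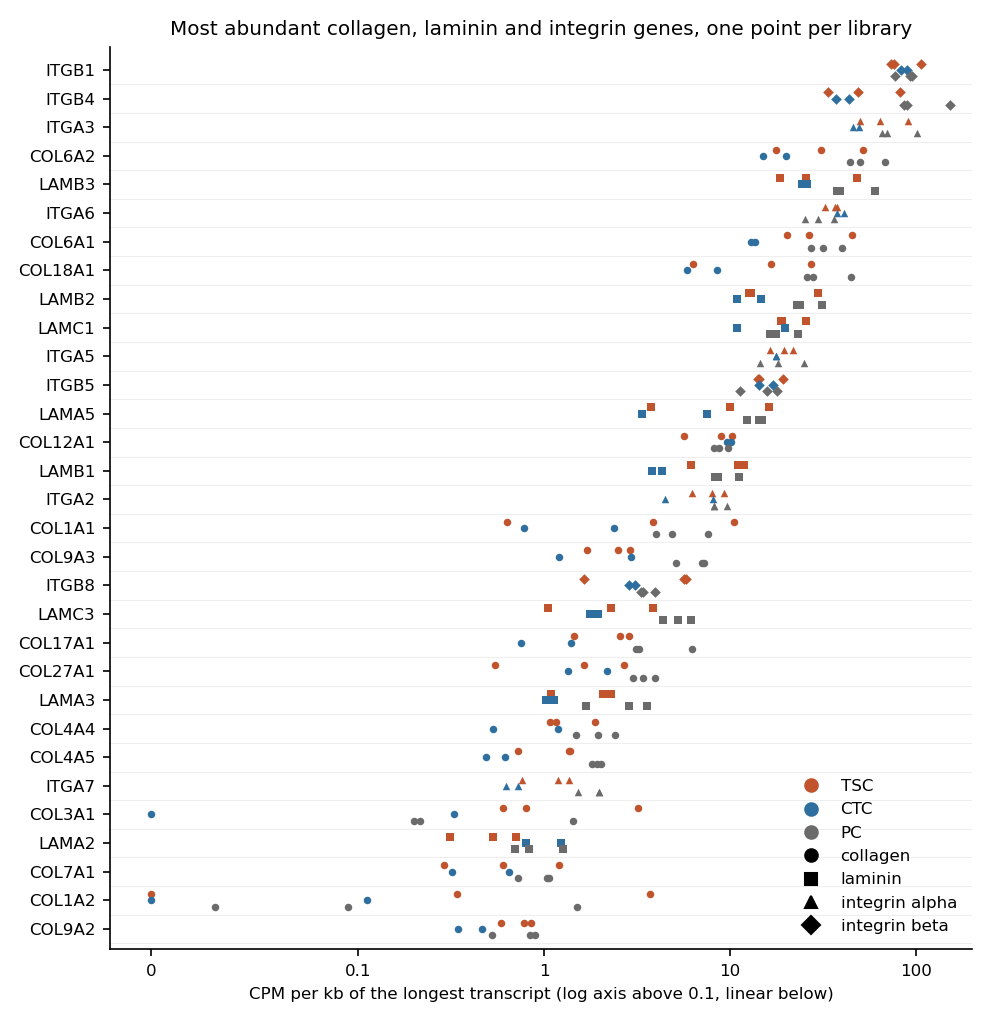
Level of the most abundant members, 1 row per gene and 1 point per library, as CPM per kilobase of the longest transcript (log axis above 0.1, linear below), with the group by colour and the class by shape. The receptor genes ITGB1, ITGB4 and ITGA3 head the order of means over 8 libraries, at 86.8, 71.7 and 67.1.

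Of the 74 members, 26 had too few counts to be tested (21 matrix and 5 receptor genes), with a median of 4 and at most 33 counts over the 8 libraries. ITGA8 and ITGA11 were listed at 0 throughout, as were the housekeeping genes RPS25 and NDUFS1, so a 0 here is no proof of silence. The untested members include COL4A2, partner of COL4A1 in the main collagen IV network, which had 4 and 1 counts in TSC replicates 2 and 3 and 7 counts in PC replicate 1 and was at 0 in the other libraries. COL4A1 itself stood at 0, 1.20 and 1.54 CPM in TSC, 0.997 and 0 CPM in CTC and 3.85, 0 and 0.104 CPM in PC. ITGB6, a beta partner of ITGAV, had 2 counts, both in PC replicate 1. Statements on tested members cover the remaining 48, 35 matrix and 13 receptor genes.

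The comparison of CTC with PC sets cells in the blood against cells of the primary tumour. Basement membrane and collagen VI genes were among those that fell in CTC, 7 matrix genes in all, while 1 receptor gene fell and 1 rose. Of 48 tested members, 9 were called at an adjusted p under 0.05 (quasi-likelihood test of edgeR, Benjamini-Hochberg adjustment over all 14255 tested genes), where 3.92% of all tested genes were called. The 8 that fell (2.52% of all tested genes fell) include COL6A1, COL6A2, COL18A1, COL17A1, COL4A5, LAMB1 and ITGB4, and ITGA4 rose (1.4% of all tested genes rose). The median log2 fold change of CTC over PC was −1.36 over matrix genes, with 31 of 35 below 0, and −0.12 over receptor genes, with 8 of 13 below 0, beside −0.04 and 52.6% below 0 over all tested genes. At an unadjusted p under 0.05, 18 matrix genes were lower and 1 higher, and 3 receptor genes were lower and 2 higher, beside 23.6% of all tested genes in either direction. Both CTC libraries lay below all PC libraries for 21 of 35 matrix and 5 of 13 receptor genes (24.7% of all tested genes), and above them for 1 matrix and 3 receptor genes (19.9%). In bulk RNA, fewer cells that express a gene and less RNA per cell cannot be told apart.

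These calls rest on few libraries. Most of them were lost without CTC replicate 1, and all of them without CTC replicate 2. Each of these fits leaves 1 CTC library, assumed to vary like the other groups, and in the second it is the shallow CTC replicate 1. Without PC replicate 3, 0 members were called, where 154 of 14125 genes were called in all. The count of members was 4 without PC replicate 1 (177 of 14046 genes), 3 without PC replicate 2 (182 of 14133), 3 without TSC replicate 3 (285 of 14153), 21 without TSC replicate 1 (1575 of 14169) and 16 without TSC replicate 2 (1054 of 14141). The log2 fold change over all 8 such fits ran from −2.49 to −1.60 for COL17A1, from −1.99 to −1.65 for COL4A5 and from −1.87 to −1.38 for COL6A2. Matrix transcripts were richer in G and C (median 55.2%) and longer (6.55 kb) than receptor transcripts (49.0% and 5.48 kb) and all tested genes (48.4% and 3.62 kb). After a correction for GC content and length, added after the data were seen, the medians of CTC over PC were −0.91 over matrix genes and 0.01 over receptor genes. It called 8 members, 6 lower and 2 higher, where 665 of 14255 genes were called in all.

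**Figure D2:**
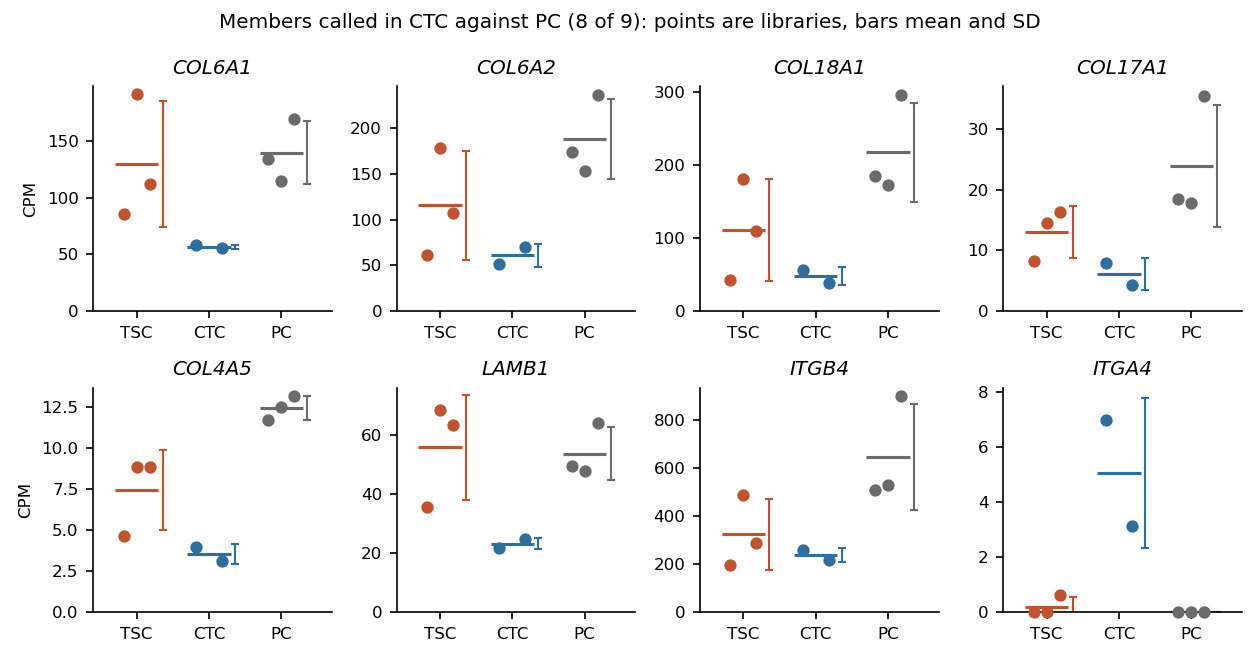
Level in CPM of 8 of the 9 members called in CTC over PC, 1 point per library, with the mean and SD of each group as bars, TSC left, CTC in the middle and PC right. In the 7 genes shown that fell, both CTC points lie below every PC point, and ITGA4 is at 0 in all PC libraries and at 6.98 and 3.15 CPM in CTC.

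The abundant collagen VI genes both lie on chromosome 21. COL6A1 (45981770 to 46005048) was at 85.3, 192 and 112 CPM in TSC, 57.9 and 55.2 CPM in CTC, and 134, 115 and 170.0 CPM in PC. It was lowest in CTC, with no overlap with either other group, and its CTC over PC log2 fold change was −1.31 ± 0.31 (SE; 2.48-fold lower, adjusted p = 0.0316 by edgeR). COL6A2 (46098112 to 46132848) was at 60.8, 179 and 107 CPM in TSC, 51.9 and 69.6 CPM in CTC, and 174, 153 and 237 CPM in PC, and fell 3.02-fold in CTC (−1.59 ± 0.36, adjusted p = 0.0276 by edgeR). CTC and PC did not overlap, while TSC replicate 1 lay between the CTC values. COL6A3, which encodes the third chain of the same trimer, was at most 1.09 CPM in TSC, at 0 in both CTC libraries and at most 1.01 CPM in PC. After the GC and length correction COL6A2 was still called (−0.91, adjusted p = 0.0277 by edgeR) and COL6A1 was not (−0.64, adjusted p = 0.0802).

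COL18A1 (chromosome 21, 45405165 to 45513720) was at 41.7, 181 and 109.6 CPM in TSC, 55.9 and 38.4 CPM in CTC, and 184, 172 and 295 CPM in PC. Its fall in CTC was 4.80-fold against PC (−2.26 ± 0.48, adjusted p = 0.0209 by edgeR), and −1.16 on the log2 scale after the GC and length correction. TSC replicate 1 was as low as CTC and TSC replicate 2 as high as PC. COL17A1 (chromosome 10, 104031286 to 104085880), the transmembrane collagen of hemidesmosomes, was at 8.24, 14.6 and 16.3 CPM in TSC, 7.98 and 4.29 CPM in CTC, and 18.4, 17.8 and 35.6 CPM in PC. The groups stood in order without overlap, CTC lowest and PC highest, but the CTC replicate 1 value rested on 8 counts. There 1 count is 0.997 CPM, more than the gap to TSC replicate 1. COL17A1 was 4.66-fold lower in CTC than in PC (−2.22 ± 0.48, adjusted p = 0.022 by edgeR). COL17A1 and COL18A1 were called under all 9 other settings tried and in 6 of 8 fits with 1 library left out. The other named calls were less stable in those fits. COL6A2, COL4A5 and ITGB4 were called in 3 of 8, COL6A1 and LAMB1 in 2 of 8, and ITGA4 in 3 of the 7 that tested it. With the replicate number as a block, COL4A5, COL6A1, ITGB4 and LAMB1 were not called.

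Of the collagen IV genes, COL4A4 and COL4A5 had the highest levels per length. COL4A5 (chromosome X, 108439838 to 108697545) was at 4.68, 8.89 and 8.86 CPM in TSC, 3.99 and 3.15 CPM in CTC, and 11.7, 12.5 and 13.2 CPM in PC. The groups again did not overlap, with the CTC replicate 1 value resting on 4 counts. COL4A5 fell 3.72-fold in CTC (−1.90 ± 0.44, adjusted p = 0.0312 by edgeR). COL4A4, whose chain joins those of COL4A3 and COL4A5 in 1 trimer, was at 11.6, 18.8 and 10.8 CPM in TSC, 12.0 and 5.34 CPM in CTC, and 14.8, 19.5 and 24.2 CPM in PC, and did not pass the test (−1.45 ± 0.43, adjusted p = 0.0689). COL4A3, which starts beside it on the other strand, was at 0.223, 2.33 and 1.99 CPM in TSC, 1.99 and 0.286 CPM in CTC, and 4.19, 2.12 and 5.56 CPM in PC (−2.75 ± 1.16, adjusted p = 0.171 by edgeR). Both had their lowest CTC value in replicate 2 and every CTC value below every PC value. For COL4A3 the CTC replicate 1 value rested on 2 counts. COL12A1, a collagen that sits on the surface of fibres, was an abundant exception, with 66.4, 119.6 and 105 CPM in TSC, 119 and 113 CPM in CTC, and 114, 96.7 and 102 CPM in PC (0.15 ± 0.23, adjusted p = 0.735).

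Of the 10 tested laminin genes, 2 fell in CTC and 9 had a negative log2 fold change, with a median of −1.24. LAMB1 (chromosome 7, 107923799 to 108003161) was at 35.7, 68.5 and 63.4 CPM in TSC, 21.9 and 24.7 CPM in CTC, and 49.5, 47.7 and 64.1 CPM in PC. It was 2.26-fold lower in CTC than in PC (−1.18 ± 0.29, adjusted p = 0.0387 by edgeR), and the TSC values overlapped those of PC. LAMB1 makes trimers with LAMC1, the most widely used gamma chain, which stood at 150.4, 201 and 148 CPM in TSC, 85.8 and 156 CPM in CTC, and 129, 139.7 and 182 CPM in PC. LAMC1 overlapped between all groups (−0.27 ± 0.25, adjusted p = 0.54 by edgeR).

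LAMA3, LAMB3, LAMA5 and LAMB2 had CTC values below all PC values but did not pass the test. The alpha chain gene LAMA3 differed by −1.30 ± 0.40 (adjusted p = 0.0742 by edgeR) and the beta chain gene LAMB3 by −0.86 ± 0.34 (adjusted p = 0.144). LAMA5 and LAMB2, the alpha and beta chains of other epithelial laminins, differed by −1.45 ± 0.47 and −1.06 ± 0.34 (adjusted p = 0.0856 and 0.085). After the GC and length correction LAMA3, LAMB3, LAMA5 and LAMB2 differed by −0.79, −0.35, −0.15 and −0.37, and none was called. LAMB1 was still called (−0.94, adjusted p = 0.0363 by edgeR). Over all laminin genes the per-kilobase sum was 68.9 to 148.8 in TSC, 72.2 and 72.8 in CTC and 119.3 to 168.7 in PC.

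**Figure D3:**
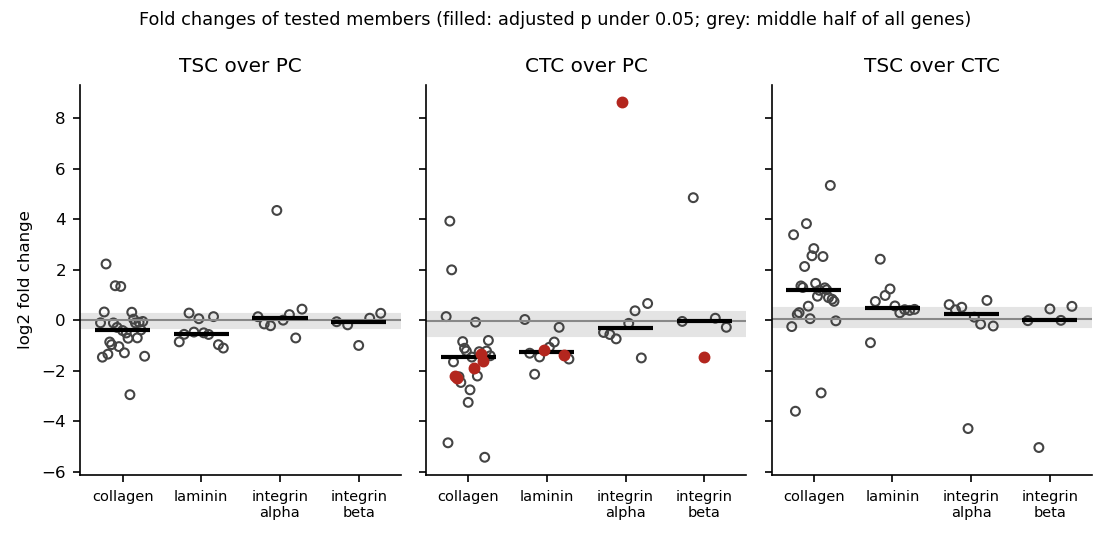
Log2 fold change of each tested member, by class, for TSC over PC, CTC over PC and TSC over CTC. Filled points passed an adjusted p of 0.05, the grey band holds the middle quartiles of all tested genes, and bars mark the class medians, which for CTC over PC were −1.45 for collagens, −1.24 for laminins, −0.30 for integrin alpha and −0.04 for integrin beta genes.

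Among receptor genes, ITGB4 (chromosome 17, 75721459 to 75757818) fell, at 199, 487 and 288 CPM in TSC, 258 and 219 CPM in CTC, and 508, 532 and 901 CPM in PC. All CTC and TSC values lay below all PC values. The CTC over PC difference was −1.44 ± 0.34 (2.72-fold lower, adjusted p = 0.0301 by edgeR) and was not called after the GC and length correction (−0.54, adjusted p = 0.121). ITGA6, which makes the hemidesmosome receptor with ITGB4, was at 211, 207 and 182 CPM in TSC, 212 and 231 CPM in CTC, and 143, 167 and 203 CPM in PC. Both CTC values of ITGA6 were above the PC values and the test was not passed (0.38 ± 0.19, adjusted p = 0.242 by edgeR), so of the 3 hemidesmosome members COL17A1 and ITGB4 fell and ITGA6 did not.

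ITGB1 was at 404, 277 and 289 CPM in TSC, 337 and 315 CPM in CTC, and 291, 353 and 362 CPM in PC, with overlap between all groups (CTC over PC −0.04 ± 0.20, adjusted p = 0.921 by edgeR). Its laminin-binding partner ITGA3 was at 274, 494 and 352 CPM in TSC, 250.4 and 270.3 CPM in CTC, and 383, 361 and 555 CPM in PC (−0.73 ± 0.25, adjusted p = 0.103). After the GC and length correction the ITGA3 difference was 0.01. Of the other alpha genes whose products pair with ITGB1, the collagen receptor gene ITGA2 (−0.56 ± 0.27) and the fibronectin receptor gene ITGA5 (−0.12 ± 0.24) did not pass the test, while ITGA1, a collagen receptor gene, was at most 3.99 CPM. ITGB5 and ITGB8, which pair with ITGAV, differed by 0.09 ± 0.24 and −0.27 ± 0.42.

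ITGA4 (chromosome 2, 181457205 to 181538940), an alpha subunit of lymphocytes and monocytes, was at 0, 0 and 0.633 CPM in TSC, 6.98 and 3.15 CPM in CTC, and 0 in all PC libraries. It rested on 7 counts in TSC, 40 in CTC and 0 in PC. With 3 counts over the PC group as the floor, its pooled CTC level of 3.48 CPM was 48.8-fold higher. That figure leaves out the error of the CTC level. ITGA4 was called by edgeR (adjusted p = 0.031) and not by DESeq2 (adjusted p = 0.12). It passed the count filter only through its CTC values, so its call as higher in CTC is not independent of that filter. ITGB7, its leukocyte beta partner, was untested, at 0, 0.423 and 0 CPM in TSC, 6.98 and 0.191 CPM in CTC, and 0, 0 and 0.363 CPM in PC. ITGB3, the platelet and endothelial partner of ITGA2B and ITGAV, was at 0, 0.212 and 0 CPM in TSC, 0.997 and 4.96 CPM in CTC, and 0.0838, 0.276 and 0 CPM in PC (4.86 ± 1.37, adjusted p = 0.0605 by edgeR). Like ITGA4, ITGB3 passed the count filter only through its CTC values. ITGA4 and ITGB7 were highest in CTC replicate 1 and ITGB3 in CTC replicate 2. In CTC replicate 2, ITGB7 was below the highest TSC and PC libraries. Of these 3 genes only ITGA4 passed the test. The leukocyte marker sum was 379 and 119.6 CPM in CTC against at most 52.2 CPM in TSC and PC, most of that from CD68. The part of leukocytes in the ITGA4 result was not tested. The sum of 8 platelet markers was at most 4.99 CPM in any library, with PF4, PPBP, GP9 and GP1BB at 0.

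Matrix and receptor genes were also summed within each library, per length. The matrix sum in CPM per kilobase was 127, 304 and 203 in TSC, 133 and 131 in CTC, and 273, 254 and 361 in PC. The receptor sum was 272, 334 and 274 in TSC, 266 and 256 in CTC, and 298, 327 and 444 in PC. Both sums were lower in CTC than in each PC library, the matrix sum by more. The ratio of matrix to receptor sum was 0.706 ± 0.222 in TSC (SD, n = 3), 0.506 ± 0.00604 in CTC (n = 2) and 0.836 ± 0.0720 in PC (n = 3). By library it was 0.468, 0.908 and 0.742 in TSC, 0.502 and 0.511 in CTC, and 0.916, 0.778 and 0.813 in PC, so TSC reached into the range of PC and TSC replicate 1 was the lowest of all. With COL6A2 and ITGB1, the genes of each side with the highest mean over all 8 libraries, left out, the ratio was 0.664, 0.965 and 0.873 in TSC, 0.670 and 0.640 in CTC, and 1.01, 0.898 and 0.840 in PC, with CTC still below all PC libraries.

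**Figure D4:**
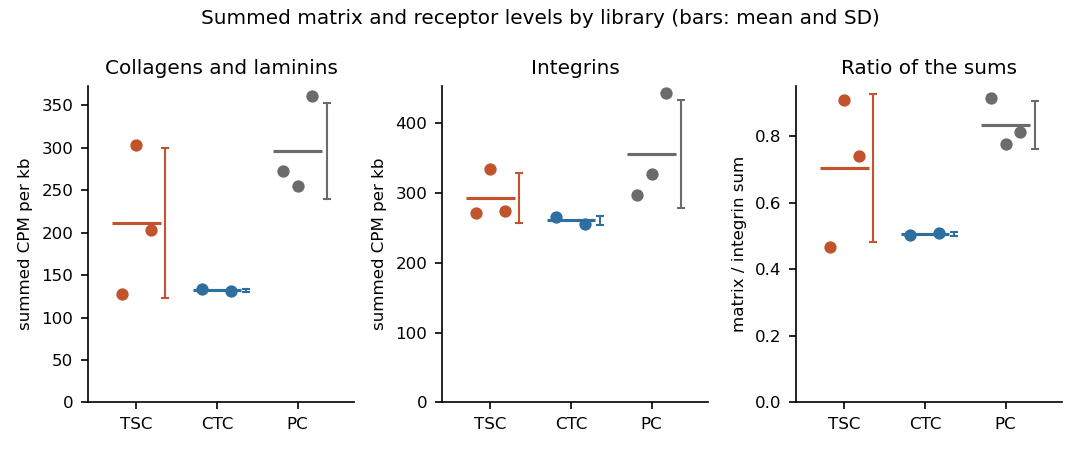
Sum of matrix genes and of receptor genes in each library (CPM per kilobase) and their ratio, TSC left, CTC in the middle and PC right, with the mean and SD of each group as bars. Both CTC ratios, 0.502 and 0.511, lie below the PC ratios of 0.778 to 0.916, and the TSC ratios run from 0.468 to 0.908.

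The interstitial fibre collagens, textbook products of fibroblasts, varied widely within groups. COL1A1 was at 4.23, 26.0 and 70.8 CPM in TSC, 16.0 and 5.25 CPM in CTC, and 51.1, 32.9 and 26.9 CPM in PC. COL1A2, its partner chain, was at 0, 2.05 and 22.2 CPM in TSC, 0 and 0.668 CPM in CTC, and 8.96, 0.184 and 0.571 CPM in PC. COL3A1 was at 4.46, 3.32 and 17.7 CPM in TSC, 0 and 1.81 CPM in CTC, and 7.96, 1.10 and 1.19 CPM in PC. TSC replicate 3 and PC replicate 1 were the highest library of their group for each of them. With COL5A1 and COL5A2 added, these fibrillar chains held 2.46%, 3.46% and 16.1% of the collagen sum in TSC, 4.06% and 2.5% in CTC, and 7.39%, 4.07% and 2.48% in PC. None of the 5 genes was called in any comparison (COL1A1, CTC over PC, −2.23 ± 0.86, adjusted p = 0.135 by edgeR). The sum of 8 fibroblast and stellate cell markers was 2.90 to 6.78 CPM in TSC, 6.98 and 2.48 CPM in CTC, and 6.35 to 8.36 CPM in PC, with DCN, LUM and POSTN at 0 in every library. ACTA2 alone made up all or most of each sum, at 2.90, 6.14 and 5.61 CPM in TSC, 6.98 and 2.48 CPM in CTC, and 6.28, 5.24 and 7.79 CPM in PC. The CTC replicate 1 value rested on 7 counts. TSC replicate 3, CTC replicate 1 and PC replicate 3 had the highest marker sums of their groups. The part of stromal cells in the collagen values was not tested.

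**Figure D5:**
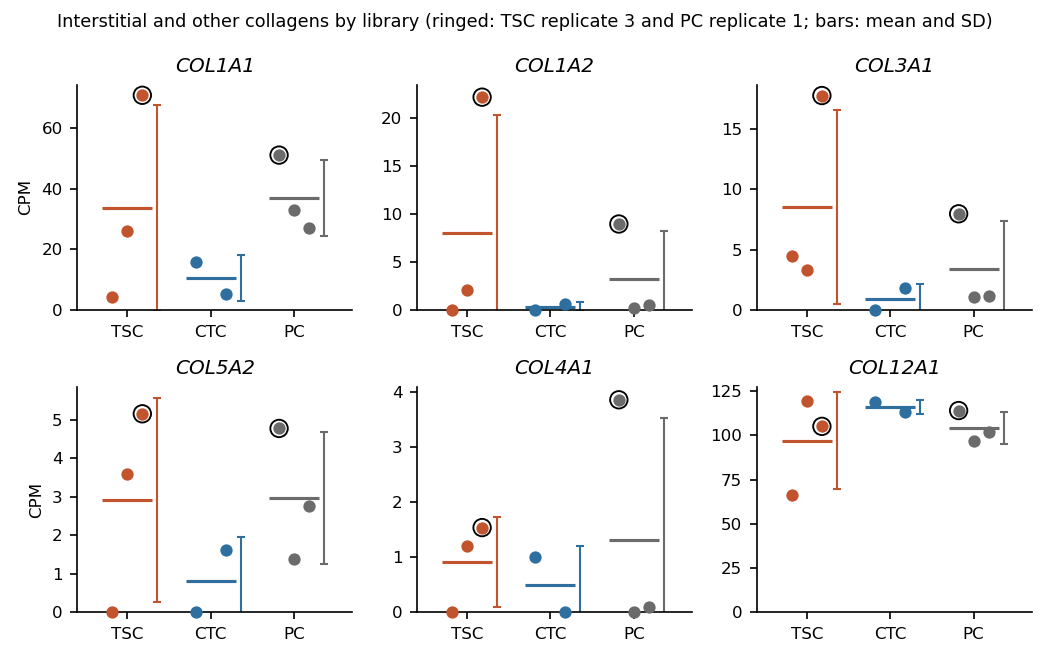
Level in CPM of 4 interstitial fibre collagen genes and, for comparison, COL4A1 and COL12A1, 1 point per library, with mean and SD as bars, TSC left, CTC in the middle and PC right. The ringed libraries, TSC replicate 3 (COL1A1 at 70.8 CPM) and PC replicate 1 (51.1 CPM), stand highest in their groups for the fibre collagens.

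TSC were set against PC to ask how cells that returned to the tumour differ from its other cells. Of the 48 tested members, 0 were called by edgeR's quasi-likelihood test, where 0.505% of all tested genes were called. At an unadjusted p under 0.05 there were 11 lower and 1 higher (10.3% of all tested genes). DESeq2 and limma-voom called 2 and 5 members, where they called 191 and 553 of 14255 genes in all. The medians were −0.46 over matrix and 0.01 over receptor genes, beside 0.01 over all tested genes, with 26 of 35 matrix and 6 of 13 receptor genes below 0 (49.1% of all tested genes). Every TSC value lay below every PC value for 7 of 35 matrix and 2 of 13 receptor genes, beside 9.9% of all tested genes, and above every PC value for 0 members (8.96%). The smallest adjusted p was that of COL9A3, which encodes a chain of a collagen found on cartilage fibrils. COL9A3 was at 4.23, 7.27 and 6.24 CPM in TSC, 2.99 and 7.34 CPM in CTC, and 18.2, 12.8 and 17.5 CPM in PC. Neither TSC nor CTC overlapped with PC, and the TSC over PC difference was −1.42 ± 0.33 (adjusted p = 0.0846 by edgeR). DESeq2 called COL9A3 and ITGB4 (edgeR −0.99 ± 0.28, adjusted p = 0.188). Without TSC replicate 2, 6 members were called (153 of 14141 genes in all). Without CTC replicate 1 or CTC replicate 2, 1 member was called, where 142 of 15028 and 134 of 15039 genes were called.

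TSC against CTC again gave 0 called of 48 by edgeR, where 0.898% of all tested genes were called. At an unadjusted p under 0.05, 10 members were higher and 3 lower in TSC (16.7% of all tested genes in either direction). DESeq2 and limma-voom called 2 and 3 members, where they called 390 and 440 of 14255 genes in all. The median log2 fold change of TSC over CTC was 0.90 over matrix genes, with 5 of 35 below 0, and 0.13 over receptor genes, with 5 of 13 below 0, beside 0.06 and 44.9% below 0 over all tested genes. All TSC values were above both CTC values for 7 matrix and 2 receptor genes (15.4% of all tested genes), and below them for 2 matrix and 3 receptor genes (13%). LAMB1 came nearest to a call among the members described above (1.24 ± 0.29, adjusted p = 0.0652 by edgeR), and all TSC values were above the CTC values. COL6A1 followed (1.21 ± 0.31, adjusted p = 0.0848). Without TSC replicate 1, 7 members were called (696 of 14169 genes), and 1 without CTC replicate 1 (168 of 15028 genes). The comparisons of TSC and CTC with PC share the PC libraries, and those of CTC with PC and TSC with CTC share the CTC libraries.

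Other genes of matrix and adhesion were described by list. Of 7 tested genes of the basement membrane and adhesive matrix, 4 fell in CTC against PC and 1 rose, beside 2.52% lower and 1.4% higher of all tested genes, shares that also stand behind the counts of the next lists. The proteoglycan genes HSPG2 (perlecan) and AGRN (agrin) fell by 2.21 ± 0.48 and 1.64 ± 0.35 on the log2 scale (adjusted p = 0.0233 and 0.022 by edgeR), the fibulin gene FBLN1 fell by 1.20 ± 0.27 (adjusted p = 0.024), and SPARC, which encodes a collagen-binding protein, fell to 0 in both CTC libraries (adjusted p = 0.0138). FN1, the fibronectin gene, went the other way, at 6.24, 33.2 and 49.4 CPM in TSC, 728 and 609 CPM in CTC, and 31.2, 16.3 and 31.1 CPM in PC. It was 25.4-fold higher in CTC than in PC (4.67 ± 0.51, adjusted p = 0.000192 by edgeR), while ITGA5, the alpha subunit of its main receptor, did not pass the test.

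Of 21 tested genes that process collagen and laminin chains, 5 fell in CTC and 0 rose: the hydroxylase genes P4HA2 and PLOD1, the cross-linking enzyme gene LOXL3, the propeptide protease gene BMP1 and PXDN, whose peroxidase cross-links collagen IV. Of 12 other matrix receptor genes, 1 fell, BCAM, a laminin receptor gene (−1.88 ± 0.42, adjusted p = 0.0256 by edgeR). Of 23 focal adhesion and hemidesmosome genes, TNS4 (−2.38 ± 0.47, adjusted p = 0.0157) and ACTN1 (−0.78 ± 0.20, adjusted p = 0.0457) fell and 0 rose. Of 6 tested integrin genes outside the symbol rule, the leukocyte subunit genes ITGB2 (8.45 ± 0.74, adjusted p = 2.89e-05 by edgeR) and ITGAM rose in CTC. The other 4 were not called. ITGB2 and ITGAM passed the count filter only through their CTC values, so their calls in comparisons with CTC are not independent of that filter. In TSC against PC these lists held 0 called genes, where 0.505% of all tested genes were called. In TSC against CTC, FN1, ITGAM and ITGB2 were lower and LOXL3 was higher in TSC (2.84 ± 0.57, adjusted p = 0.0333 by edgeR).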

How the data were processed

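The deposited table holds whole-number counts per gene that the authors did not normalize. Per the submitters' processing notes the tools were STAR 2.5.3a and featureCounts 1.5.3 and the build hg38, and RNA was total RNA depleted of ribosomal RNA, per the labels' protocols. Not given in the sources used here are the annotation, strandedness, how multiply placed reads were counted and any removal of host reads, so reads of a gene and an antisense partner, or of a host gene alike in sequence, cannot be told apart. Library sizes and the 3-count floor bound the precision of low values.

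The quasi-likelihood test of edgeR 4.0.16 (R 4.3.3) was run with TMM factors after filterByExpr by group. All 8 libraries entered 1 fit, so that CTC shares the estimate of spread. Calls needed an adjusted p under 0.05 (Benjamini-Hochberg, 14255 tested genes). The SE is the log2 fold change divided by the square root of F. Per-kilobase levels used the longest transcript of GENCODE 29. The steps were tested on simulated data. Alternatives were DESeq2 1.42.0, limma-voom (limma 3.58.1, quality weights), RLE size factors, a stricter filter of 1 CPM and none, only the groups compared, the replicate number as a block and each library left out. A GC and length correction, for which 91% of tested genes had values, and the removal of 22 blood cell genes were added after seeing the data. Positions and promoters are from RefSeq GRCh38.p14, the same build as hg38.

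The members and lists were chosen with earlier results of these data known. The genes named are the called members, the 3 most abundant of each class per kilobase, the partners of known complexes, the interstitial collagens, the leukocyte-associated members and the called genes of related lists. COL12A1, COL9A3, COL4A3, COL4A4, COL6A3, RPS25 and NDUFS1 were named after their values were seen. 1 called member is not reported here.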

Additional observations from a re-analysis of the deposited data

How the results depend on the processing

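Signs were checked for the tested genes among 32 members named by rule, and no called value of these reversed under any alternative. The signs of other called genes were not checked. RLE size factors and removal of blood cell genes left each count within 1.5 times of its value, as did the stricter filter. Genes called in TSC over PC numbered 191 by DESeq2, 178 with the GC and length correction, 553 by limma-voom, 355 with no filter and 128 with only the groups compared, against 72, and 10 to 153 with 1 library left out. In CTC over PC they numbered 1125, 665, 1660, 1535 and 1409 in the same order, against 559, and 35 to 1575. In TSC over CTC they numbered 390 by DESeq2, 440 by limma-voom, 728 with no filter and 82 with only the groups compared, against 128, and 36 to 696. Members called in TSC over PC were 2, 2, 5, 7 and 1 by DESeq2, the correction, limma-voom, no filter and only the groups compared, against 0, and 0 to 6 with 1 library left out. In CTC over PC they were 15 by DESeq2, 19 by limma-voom, 22 with no filter and 21 with only the groups compared, against 9, and 0 to 21. In TSC over CTC they were 2 by DESeq2, 1 with the correction, 3 by limma-voom and 10 with no filter, against 0, and 0 to 7. The causes were not tested.

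The deviations from the group mean of same-numbered TSC and PC libraries correlated at 0.0328, −0.134 and 0.0943. Those of same-numbered TSC and CTC libraries correlated at −0.0536 and −0.0236, and those of CTC and PC libraries at 0.0229 and 0.0449. With so few libraries in a group, these values cannot tell whether the replicate numbers pair the libraries. With the replicate number as a block, 67, 261 and 61 genes and 0, 4 and 0 members were called in TSC over PC, CTC over PC and TSC over CTC. With the correction the called genes of CTC over PC split into 349 higher and 316 lower, against 200 and 359 without it. CTC replicate 1, at 957607 counts, limits what low members can show, since 1 count there is 0.997 CPM.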
